A study of Nasonia vitripennis with 9 samples.

Results

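The genes described here are the cytochrome P450 genes of the parasitoid wasp Nasonia vitripennis that carry a CYP name in the deposited count tables. All rows whose identifier begins with CYP and a digit were taken, and CYP314A1, the gene of the final step of moulting hormone synthesis, was left out. This gave 41 of 15418 gene rows, of which 14 belonged to family CYP4, 16 to CYP6, 10 to CYP9 and 1, CYP336B1, to none of these. The annotation lists 2 of the CYP6 and 1 of the CYP9 members as pseudogenes. Genes listed only by a locus number have no family name in the tables and are not members, even where they may encode a P450. P450 genes of other steps of hormone synthesis are not analysed here.

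Pools of 5 male wasps of the laboratory strain AsymCX, a strain cured of the bacterium Wolbachia, were compared after dsGFP injection, after water injection and without injection, with 3 libraries per group. The dsGFP group received 4 µg/µl of double-stranded RNA against green fluorescent protein, in water with red food dye, when the larvae were in their second instar and about 3 days old from egg laying. This RNA has no intended target in the wasp. The water group received water and dye at the same stage. Both injected groups lay on 1% agarose for injection, were returned to fly hosts, several larvae to a host, and were collected 5 to 6 days later. The uninjected group was collected as a control, and the labels give no separate age and no handling for it. The labels call the material white pupae in one field and whole larvae in another, so the exact stage of each pool is not fixed by them. The word pupae is used below after the first of these fields and does not settle the stage. The labels do not say whether pools came from separate hosts or cultures, and p-values therefore measure only the spread between these pools. The comparison of dsGFP with water asks about the RNA itself, that of water with uninjected about the injection and handling, and that of dsGFP with uninjected about both together.

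Cytochrome P450 enzymes are haem proteins of the endoplasmic reticulum or the mitochondrion that use oxygen and electrons from a reductase to oxidise fatty acids, hormones and foreign compounds. In insects, CYP6 and CYP9 enzymes are best known for the oxidation of plant toxins and insecticides. The CYP4 family is broader. It includes the CYP4G enzymes, some of which are known from Drosophila and the honey bee to make the hydrocarbons that waterproof the cuticle. They do so in the oenocytes, cells beneath the epidermis. What the CYP4G genes of this wasp do was not tested. Many insect P450 genes lie in tandem clusters that arose by gene duplication. In whole animals, fewer cells of a type and less RNA per cell cannot be told apart.

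Gene totals ranged from 33885222 to 35982723 read pairs in the dsGFP libraries, from 36177528 to 37100106 in the water libraries and from 38792239 to 46080606 in the uninjected libraries, so each injected library was shallower than each uninjected one. Reads of rRNA genes were at 28.5 to 39.3 CPM with dsGFP (CPM, read pairs assigned to a gene, scaled to the library's size), 15.3 to 37.3 CPM with water and 6.02 to 13.1 CPM without injection. All 3 muscle genes found of 4 listed by symbol had counts in every library, and their sum was 853 to 918 CPM in dsGFP pools, 779 to 931 CPM in water pools and 772 to 883 CPM in uninjected pools. All 5 nervous system genes listed had counts in every library, with sums of 77.5 to 107 CPM in dsGFP pools, 110 to 127 CPM in water pools and 118 to 163 CPM in uninjected pools, so the dsGFP pools were lowest. The 3 storage hexamerin genes, also present in every library, summed to 2036 to 3088 CPM in dsGFP pools, 2471 to 4231 CPM in water pools and 3265 to 4451 CPM in uninjected pools. Of the 35 CPR cuticular protein genes, 22 had counts in every library and 1 had none in any. Their summed levels were 3376 to 17061 CPM in dsGFP pools, 1142 to 8254 CPM in water pools and 274 to 5933 CPM in uninjected pools. The 2 defensin genes summed to 58.5 to 267 CPM in dsGFP pools and 5.75 to 119 CPM in water pools. In uninjected pools 1, 2 and 3 they summed to 54.8, 1423 and 1.99 CPM, so uninjected 2 stood far above the others.

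The 41 members together took 0.294 to 0.428% of gene counts in the dsGFP libraries, 0.277 to 0.349% in the water libraries and 0.240 to 0.328% in the uninjected libraries. A single gene, CYP4G43, held 54.3 to 65.7% of these P450 counts with dsGFP, 53.5 to 64.2% with water and 47.9 to 65.5% without injection. CPM does not correct for transcript length, and the sources used here give no transcript lengths, so levels are compared between libraries and not between genes. Counts were found in every library for 35 of the 41 members. Enough counts for testing were present for 32 members, namely 10 CYP4, 15 CYP6 and 6 CYP9 genes and CYP336B1. This filter removes genes that are low in all groups.

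The 9 members too low for testing were CYP4AB6, CYP4AB9, CYP4AB14, CYP4AB18, CYP6CK13P, CYP9AG7, CYP9AG8P, CYP9P4 and CYP9P5. None of them had more than 14 counts in any library. CYP9P4 and CYP9P5 had 0 counts in all libraries, which allows at most 0.0885 CPM in the shallowest library and 0.0651 CPM in the deepest, for counting error only. Neither gene was detected at this depth, while the nearby CYP9P3, with 5 genes between it and CYP9P4, had 17 to 55 counts per library. CYP9AG7 had 4 counts in all, spread over 3 libraries.

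Within groups, the tested P450 genes varied more between pools than most genes. Their median within-group SD was 0.30 on the log2 CPM scale, against 0.19 over all 11665 genes tested. Members and all genes were not matched for level. The part of counting error in these medians, and in the interval widths given below, was not tested. The spread was uneven among members. CYP4AB12, CYP6CK7 and CYP6CK8 varied little, with SDs of 0.096, 0.10 and 0.11, and CYP9AG3, CYP6CK3 and CYP4BW5 varied most, with SDs of 0.75, 0.70 and 0.66. CYP9AG3 and CYP6CK3 are low genes with 5 to 32 and 4 to 21 counts per library, so counting error limits their precision.

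**Figure D1:**
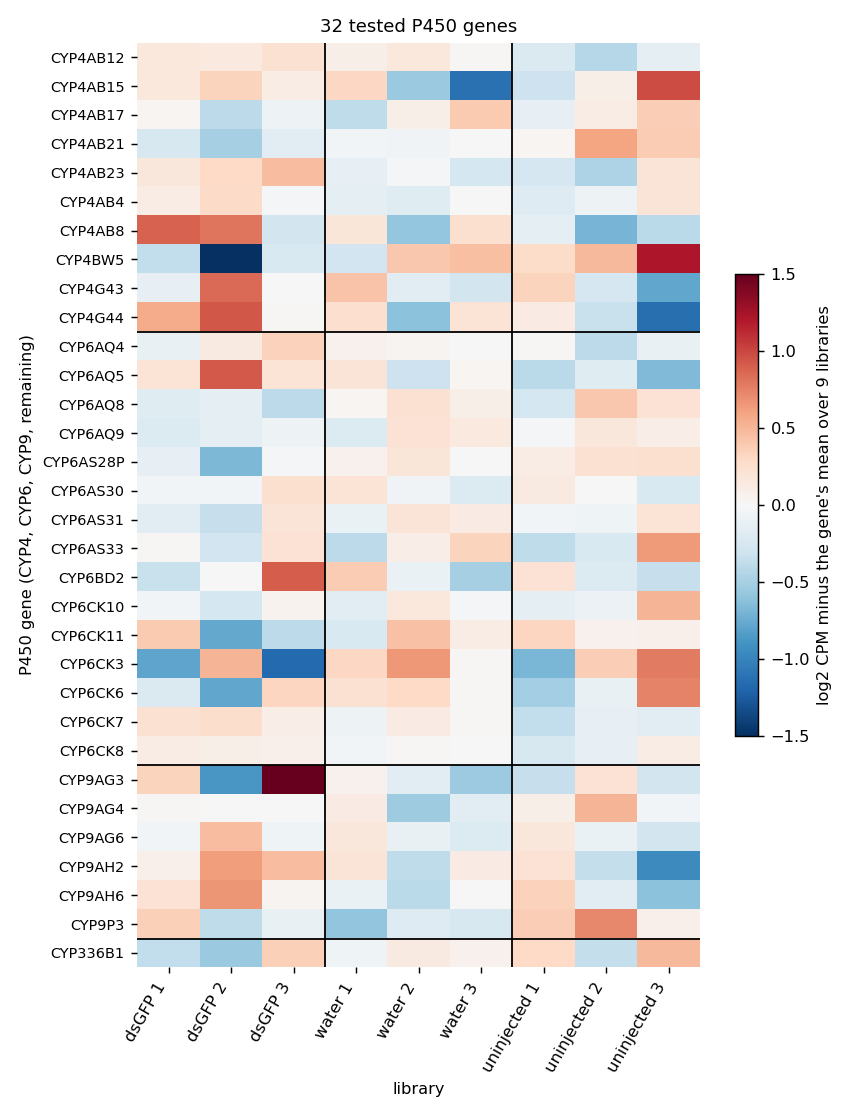
Colour shows log2 CPM of each of the 32 tested P450 genes in each of the 9 libraries, minus the gene's mean over the libraries, with genes in rows by family (lines between CYP4, CYP6, CYP9 and CYP336B1) and libraries in columns by group; the colour scale ends at 1.5 in either direction. Rows such as CYP4AB12 (SD 0.096 within groups) are nearly even within a group, while CYP4G43 and CYP4G44 differ between pools of the same group.

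CYP4G43 made 82.5 to 90.6% of the summed CPM of the CYP4 family. Both CYP4G genes varied widely between pools of a group, with SDs of 0.50 for CYP4G43 and 0.53 for CYP4G44 on the log2 CPM scale. CYP4G43 had 1602, 3140.5 and 1737 CPM in the dsGFP pools, 2357 CPM, 1566 CPM and 1439 CPM in the water pools and 2193, 1465 and 1014 CPM in the uninjected pools. A single pool in each group stood above the others, and the groups overlapped. CYP4G44 had 91.1, 119 and 62.8 CPM in dsGFP pools, 73.95, 40.4 and 71.7 CPM in water pools and 67.8, 49.2 and 28.3 CPM in uninjected pools. The pools highest in CYP4G43, dsGFP 2, water 1 and uninjected 1, were also the highest of their group in CYP4G44. They were the highest in summed CPR cuticle genes too, at 17061, 8254 and 5933 CPM. The part of the cuticle genes' difference between pools in these CYP4G levels was not tested. For CYP4G44 the full order of pools matched that of the cuticle sum in all 3 groups, as it did for 342 (2.93%) of all genes tested, and 1 of 32 P450 genes is close to that share. CYP6CK10 had the reverse order in all 3 groups, as did 1.11% of all genes.

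The fold changes of the CYP4G genes were correspondingly uncertain. With dsGFP against uninjected the log2 fold change was 0.47 (SE 0.35) for CYP4G43 and 0.91 (SE 0.39) for CYP4G44, and neither passed (edgeR adjusted p = 0.498 and 0.277). The 95% interval for CYP4G43 ran from 0.804-fold to 2.39-fold, and that for CYP4G44 from 0.986-fold to 3.57-fold. Against water, dsGFP gave 0.27 (SE 0.35) for CYP4G43 and 0.55 (SE 0.39) for CYP4G44. Without dsGFP 2 the log2 fold change of CYP4G43 turned to -0.10 against water and was 0.097 against uninjected.

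Without CYP4G43, the other 13 CYP4 genes, which include CYP4G44 and 11 CYP4AB genes, had a summed level of 296 ± 32.5 CPM in dsGFP pools, 249 ± 18.3 CPM in water pools and 218 ± 11.5 CPM in uninjected pools (SD, n = 3 each). By pool the sum was 263 to 328 CPM with dsGFP and 207 to 230.1 CPM without injection, with no overlap. The water pools lay between, at 228 to 260 CPM, and overlapped the uninjected range. No test was made on these sums, which follow their most abundant members CYP4AB12, CYP4G44 and CYP4AB4. CYP4AB4 itself had 56.5, 63.9 and 51.6 CPM in dsGFP pools, 47.1, 46.2 and 52.6 CPM in water pools and 45.6, 49.7 and 59.5 CPM in uninjected pools, so its groups overlapped.

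**Figure D2:**
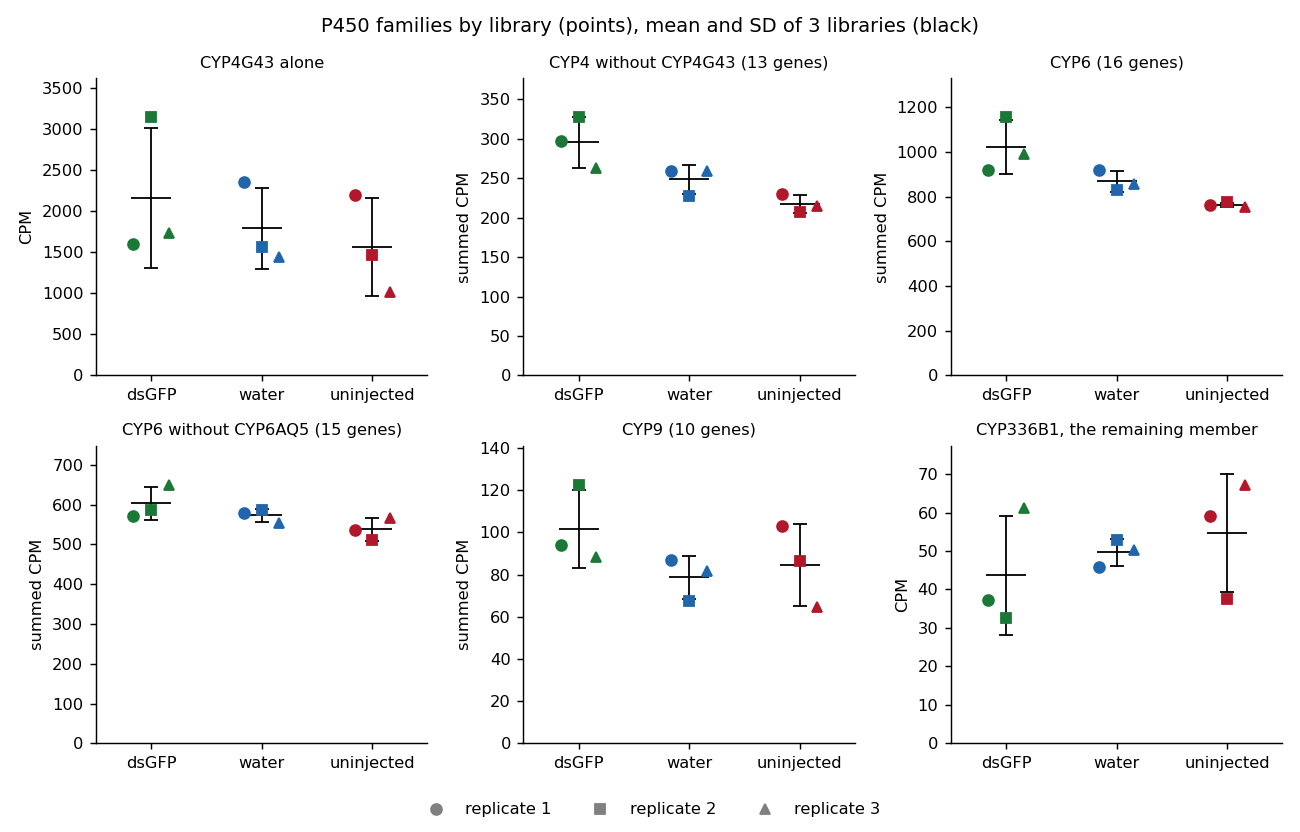
Each point is 1 library, with summed CPM of the family, or CPM of the single gene, on a vertical axis that starts at 0; black lines show the mean and SD of 3 libraries for dsGFP, water and uninjected pupae. CYP4 without CYP4G43 (263 to 328 against 207 to 230.1 CPM) and CYP6 (918 to 1156 against 756 to 775 CPM) do not overlap between dsGFP and uninjected pools, while CYP4G43, CYP9 and CYP336B1 do.

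The CYP6 genes, the family best known for oxidation of foreign compounds, summed to 1023 ± 122 CPM in dsGFP pools, 869 ± 47.3 CPM in water pools and 764 ± 9.57 CPM in uninjected pools (SD, n = 3 each). The lowest dsGFP pool had 918 CPM and the highest uninjected pool 775 CPM. CYP6AQ5 made 24.9 to 49.2% of this sum. Without it the CYP6 sum was 603 ± 40.8 CPM in dsGFP pools, 573 ± 17.3 CPM in water pools and 538 ± 28.7 CPM in uninjected pools, and the log2 ratio of dsGFP to uninjected means was 0.16 in place of 0.42. The difference in the CYP6 sum thus lay largely in a single gene. Of the 15 CYP6 genes tested, 6 had a log2 fold change above 0 with dsGFP against uninjected and 9 below. Their median was -0.13, and 51.2% of all genes tested were above 0.

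The CYP9 genes summed to 102 ± 18.3 CPM in dsGFP pools, 78.7 ± 10.1 CPM in water pools and 84.7 ± 19.3 CPM in uninjected pools (SD, n = 3 each), and the groups overlapped except that each dsGFP pool (88.2 to 122 CPM) lay above each water pool (67.4 to 86.7 CPM). CYP9AH6, which made 49.4 to 63.3% of the sum, had 56.9, 77.6 and 50.3 CPM in dsGFP pools, 45.5, 37.0 and 48.8 CPM in water pools and 62.2, 43.7 and 31.9 CPM in uninjected pools. The widest range was between uninjected pools. Without CYP9AH6 the CYP9 sum was 37.3 to 44.9 CPM in dsGFP pools and 30.4 to 41.2 CPM in water pools, with overlap. The log2 ratio of dsGFP to water means was then 0.20 in place of 0.37. CYP9AG6 had 18.0, 25.5 and 17.7 CPM in dsGFP pools, 20.8, 17.1 and 16.1 CPM in water pools and 20.7, 17.2 and 15.2 CPM in uninjected pools. CYP9AG4 had 15.8, 15.5 and 15.7 CPM in dsGFP pools, 17.1, 10.8 and 13.8 CPM in water pools and 16.7, 22.2 and 15.2 CPM in uninjected pools. CYP336B1, the only member outside the 3 large families, had 37.3, 32.5 and 61.3 CPM in dsGFP pools, 45.8, 52.8 and 50.4 CPM in water pools and 59.2, 37.5 and 67.2 CPM in uninjected pools. Its groups overlapped in each comparison, and dsGFP against uninjected gave a log2 difference of -0.32 (SE 0.27).

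Between dsGFP and uninjected pupae, 4 P450 genes were called. CYP4AB12, CYP6AQ5 and CYP6CK7 rose with dsGFP and CYP4AB21 fell. These were 3 rises (9.38% of 32 members tested), where 0.437% of all genes tested rose, and 1 fall (3.12%), where 4.11% of all genes tested fell (edgeR quasi-likelihood test with Benjamini-Hochberg adjustment over 11665 genes). In either direction 4 of 32 members (12.5%) and 4.55% of all genes were called. The median log2 fold change of the 32 genes was -0.0013, with 16 (50%) above 0, against a median of 0.0073 over all genes with 51.2% above 0. By family, CYP4 had 1 rise and 1 fall among 10 tested, CYP6 had 2 rises among 15, and CYP9 and CYP336B1 had none called. The family medians were 0.30 for CYP4, -0.13 for CYP6 and 0.31 for CYP9.

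CYP4AB12 had 115, 114 and 120.4 CPM in the dsGFP pools, 109, 115 and 104 CPM in the water pools and 88.6, 76.6 and 92.9 CPM in the uninjected pools. All injected pools lay above all uninjected pools. The rise with dsGFP over uninjected was 1.36-fold (95% interval 1.16 to 1.58; log2 fold change 0.44, SE 0.10, edgeR adjusted p = 0.0308).

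CYP6CK7 had 97.0, 99.5 and 88.8 CPM in dsGFP pools, 78.8, 89.97 and 84.1 CPM in water pools and 64.3, 75.8 and 73.3 CPM in uninjected pools. Here too all injected pools lay above all uninjected pools, and the dsGFP and water pools overlapped. The rise with dsGFP over uninjected was 1.34-fold (95% interval 1.14 to 1.56; log2 fold change 0.42, SE 0.10, edgeR adjusted p = 0.0434).

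CYP6AQ5 had 346, 568 and 344 CPM in dsGFP pools, 342, 242 and 306 CPM in water pools and 226, 265 and 188 CPM in uninjected pools. All dsGFP pools lay above all uninjected pools and, by a narrow margin at the edge, above all water pools, and dsGFP 2 stood out. The rise with dsGFP over uninjected was 1.85-fold (95% interval 1.33 to 2.59; log2 fold change 0.89, SE 0.22, edgeR adjusted p = 0.0470). Without dsGFP 2 the log2 fold change was 0.61 and the call was lost. CYP6AQ4 is the next gene in the annotation, on chromosome 2, with no gene between them. It had 133, 157 and 182 CPM in dsGFP pools, 150.4, 147 and 144 CPM in water pools and 146, 109 and 133 CPM in uninjected pools. CYP6AQ4 was not highest in dsGFP 2 and did not pass (log2 fold change 0.29, SE 0.14, edgeR adjusted p = 0.301).

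CYP6CK8, of the same subfamily as CYP6CK7, had 147, 144 and 144 CPM in dsGFP pools, 132, 138 and 135 CPM in water pools and 116, 125 and 148 CPM in uninjected pools. Uninjected 3 was the highest of all pools, so dsGFP and uninjected overlapped and the gene did not pass (log2 fold change 0.17, SE 0.11, edgeR adjusted p = 0.423).

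CYP4AB21 had 10.5, 8.73 and 11.1 CPM in dsGFP pools, 11.98, 11.9 and 12.3 CPM in water pools and 12.6, 18.6 and 16.1 CPM in uninjected pools. The 3 groups did not overlap, with dsGFP lowest and uninjected highest. The fall with dsGFP to 0.640 of the uninjected level had a 95% interval of 0.505 to 0.811 (log2 fold change -0.64, SE 0.16, edgeR adjusted p = 0.0402).

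**Figure D3:**
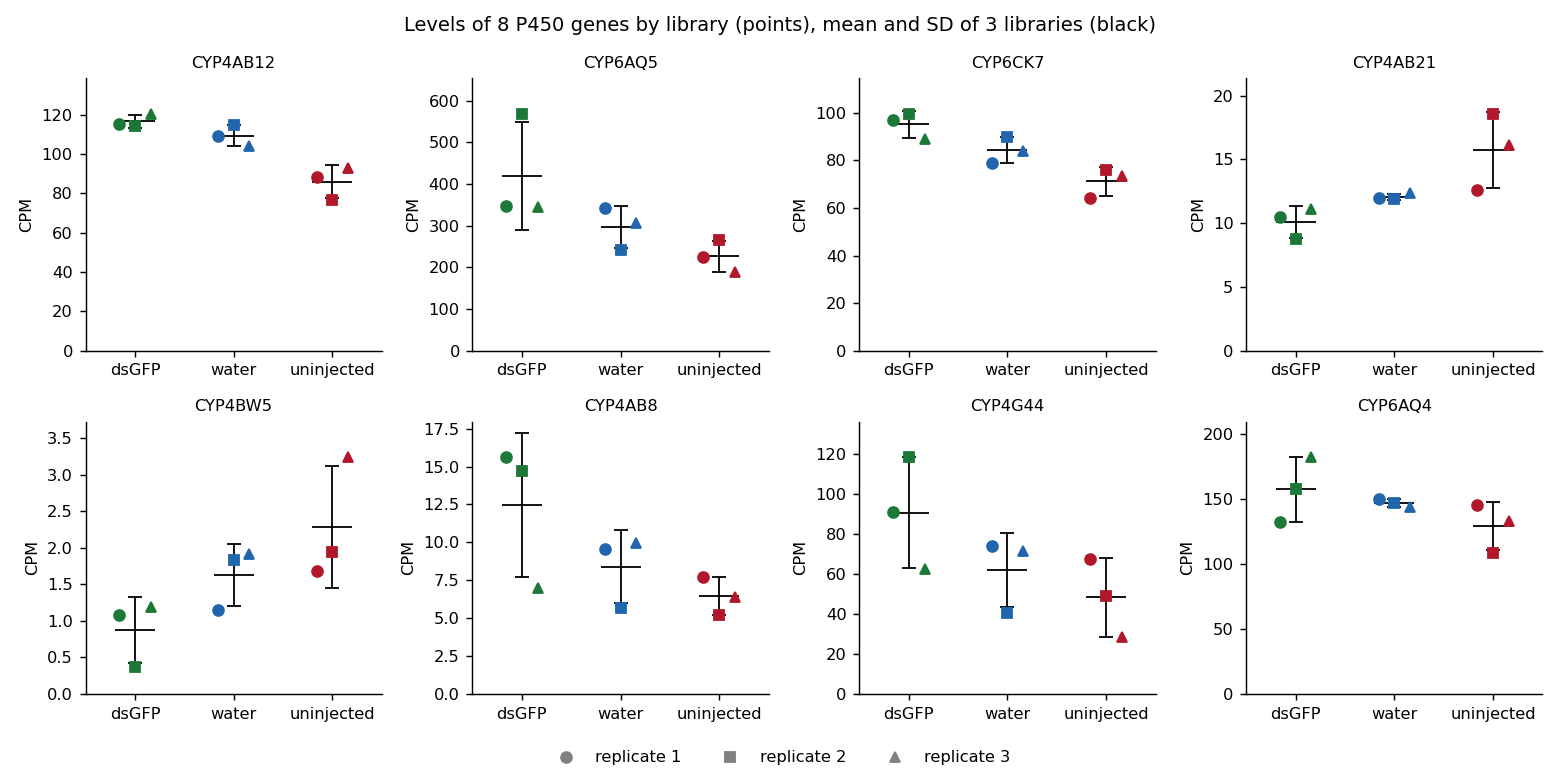
Each point is 1 library, with CPM of the gene on a vertical axis that starts at 0 and the mean and SD of 3 libraries in black, for dsGFP, water and uninjected pupae. CYP4AB12, CYP6AQ5 and CYP6CK7 are higher and CYP4AB21 lower in all 3 dsGFP pools than in all 3 uninjected pools; CYP4BW5, CYP4AB8, CYP4G44 and CYP6AQ4 did not pass the test.

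Which genes passed the threshold varied between settings. None of the 4 was kept without dsGFP 1, dsGFP 2, uninjected 2, water 1 or water 2, 1 member was called without uninjected 1 (CYP4AB21), uninjected 3 (CYP4AB12) or water 3 (CYP4AB12), 2 without dsGFP 3 (CYP6AQ5 and CYP4AB8), and 0 in a fit of only the dsGFP and uninjected libraries, while the sign of the 4 stayed the same in all 20 settings run. The log2 fold change over these settings was 0.35 to 0.49 for CYP4AB12 and 0.35 to 0.47 for CYP6CK7. It was 0.61 to 1.02 for CYP6AQ5 and -0.78 to -0.52 for CYP4AB21. Some calls were lost near the values given above, as for CYP6AQ5 in the fit of only the 2 groups (0.89). Others were lost at smaller changes, as for CYP6AQ5 without dsGFP 2 (0.61) and CYP4AB21 without uninjected 2 (-0.52). Every dsGFP library was also shallower, higher in rRNA reads and lower in the nervous system and hexamerin sums than every uninjected library, and the part of these in the P450 differences was not tested.

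Other members had fold changes as large and did not pass. CYP4BW5 had 1.08, 0.362 and 1.19 CPM in dsGFP pools, 1.14, 1.84 and 1.91 CPM in water pools and 1.68, 1.94 and 3.24 CPM in uninjected pools. Its dsGFP pools lay below its uninjected pools, at a log2 fold change of -1.37 (SE 0.41, edgeR adjusted p = 0.0996). It is a low gene, with 11 to 42 counts per library with dsGFP and 64 to 156 without injection, and it had the widest range of all members tested, 8.94-fold between the highest and the lowest library. CYP4AB8 had 15.6, 14.7 and 6.98 CPM in dsGFP pools, 9.58, 5.65 and 9.97 CPM in water pools and 7.72, 5.20 and 6.39 CPM in uninjected pools. Only the first 2 dsGFP pools stood apart (log2 fold change 0.95, SE 0.33, edgeR adjusted p = 0.160). DESeq2 called CYP4BW5 and CYP4AB8 in addition to the 4 genes above. CYP4AB15, among the members of widest range, had 0.438, 0.494 and 0.424 CPM in dsGFP pools, 0.485, 0.266 and 0.180 CPM in water pools and 0.315, 0.415 and 0.768 CPM in uninjected pools, at 7 to 37 counts per library. Uninjected 3 stood highest and the groups overlapped. CYP9AH2 had 2.16, 3.16 and 2.82 CPM in dsGFP pools, 2.34, 1.57 and 2.24 CPM in water pools and 2.39, 1.60 and 1.06 CPM in uninjected pools, and it overlapped between groups (log2 fold change 0.70, SE 0.30, edgeR adjusted p = 0.241).

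By position of the pools alone, the dsGFP values lay wholly above the uninjected ones in 3 of 32 members, the 3 called rises, where 8.79% of all genes did. They lay wholly below in 4 members, CYP4AB21, CYP4BW5, CYP6AQ9 and the pseudogene CYP6AS28P, where 13.1% of all genes did. Both shares (9.38% and 12.5% of members) were near those of all genes. At an unadjusted p under 0.05 there were 8 members (25%), against 18.7% of all genes. The 95% interval lay within 2-fold for 19 members (59.4%), against 77.5% of all genes, and within 1.5-fold for 6 (18.8%), against 57.3%. CYP6AQ9 had 2.39 to 2.63 CPM with dsGFP and 2.73 to 3.10 CPM without injection, and CYP6AS28P had 0.856 to 1.36 CPM with dsGFP and 1.47 to 1.62 CPM without injection.

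Between dsGFP and water pupae, 0 of 32 P450 genes were called by edgeR, as were 0 of 11665 genes (0%). DESeq2 and limma-voom also called 0 members. An unadjusted p under 0.05 was reached by 2 members (6.25%), CYP4AB23 and CYP6AQ5, near the 6.09% of all genes. CYP4AB23 had 3.68, 4.02 and 4.52 CPM in dsGFP pools, against 2.99, 3.22 and 2.73 CPM in water pools (log2 fold change 0.45, SE 0.20, edgeR adjusted p = 0.804). CYP6AQ5, given above by pool, had a log2 fold change of 0.50 (SE 0.22, edgeR adjusted p = 0.803). The median log2 fold change of the members was 0.10, with 19 above 0, against 0.0076 over all genes with 51.9% above 0. By family the median was 0.26 for CYP4, -0.07 for CYP6 and 0.36 for CYP9, and all 6 CYP9 genes tested had values above 0, from 0.17 to 0.90. With 1 library left out this did not always hold: the value of CYP9AG6 was -0.015 without dsGFP 2, and those of CYP9AG4 and CYP9AG3 came near 0, at 0.024 without water 2 and 0.077 without dsGFP 3. The dsGFP and water pools of the CYP9 genes overlapped except in CYP9AH6 (50.3 to 77.6 CPM with dsGFP and 37.0 to 48.8 CPM with water). The dsGFP pools lay wholly above the water pools in 4 members (12.5%), CYP4AB23, CYP6AQ5, CYP6CK8 and CYP9AH6, where 4.77% of all genes did. They lay wholly below in 3 (9.38%), CYP4AB21, CYP6AQ8 and CYP6AS28P, where 7.57% did.

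For dsGFP against water, the data bounded most but not all P450 changes. The whole 95% interval lay within 2-fold for 20 of 32 members (62.5%), against 83.1% of all genes, and within 1.5-fold for 10 (31.2%), against 64.3%. The tightest included CYP4AB12 (0.916 to 1.24-fold), CYP6CK7 (0.965 to 1.32-fold) and CYP6CK8 (0.912 to 1.26-fold). The widest among the members named here was CYP9AG3, at 0.829 to 4.20-fold, where dsGFP 3 alone was high (0.380, 0.165 and 0.904 CPM with dsGFP, 0.314, 0.266 and 0.206 CPM with water). Differences within such intervals were not detectable at this depth and spread.

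**Figure D4:**
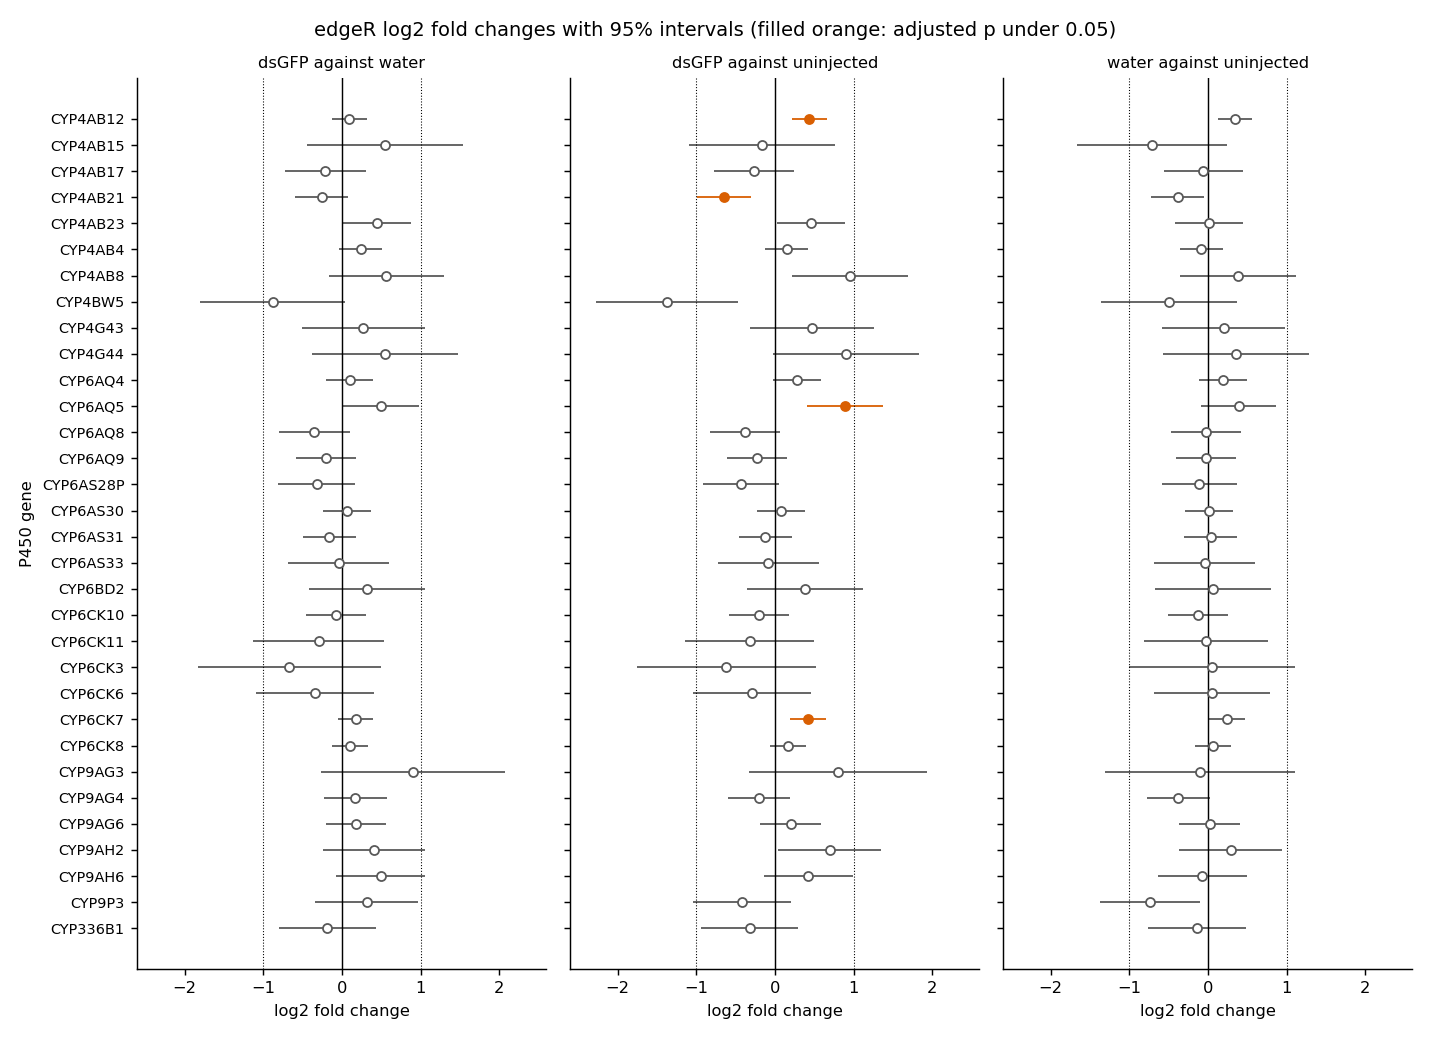
Points show the edgeR log2 fold change of each of the 32 tested P450 genes and bars its 95% interval, in the order dsGFP against water, dsGFP against uninjected and water against uninjected; dotted lines mark 2-fold and orange marks adjusted p under 0.05. The only called genes are CYP4AB12, CYP4AB21, CYP6AQ5 and CYP6CK7 in dsGFP against uninjected.

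Between water and uninjected pupae, 0 of 32 P450 genes were called, against 1 of all genes (0.00857%), and DESeq2 and limma-voom called 0 members. This comparison and that of dsGFP with uninjected share the uninjected libraries, so their values are not independent. An unadjusted p under 0.05 was reached by 4 members (12.5%, against 5.68% of all genes), namely CYP4AB12, CYP4AB21, CYP6CK7 and CYP9P3. The water pools lay wholly above the uninjected pools in CYP4AB12 and CYP6CK7 (6.25% of members, against 2.85% of all genes) and wholly below in CYP4AB21 and CYP9P3 (6.25%, against 5.79%). CYP4AB12 gave a log2 difference of 0.35 (SE 0.10, edgeR adjusted p = 0.553), CYP6CK7 of 0.24 (SE 0.10, edgeR adjusted p = 0.820) and CYP4AB21 of -0.39 (SE 0.15, edgeR adjusted p = 0.783). CYP9P3 had 0.935, 0.560 and 0.678 CPM in dsGFP pools, 0.485, 0.639 and 0.618 CPM in water pools and 0.946, 1.20 and 0.768 CPM in uninjected pools (water against uninjected, log2 fold change -0.74, SE 0.29, edgeR adjusted p = 0.759), at 17 to 24 counts per library with water and 36 to 55 without injection. CYP6AQ5 had a log2 fold change of 0.39 (SE 0.22), and its water and uninjected pools overlapped. The 95% interval lay within 2-fold for 25 members (78.1%), against 84.6% of all genes, and within 1.5-fold for 13 (40.6%), against 66.9%. Of the members 16 (50%) had values above 0, against 50.6% of all genes, and the family medians were -0.02 for CYP4, 0.04 for CYP6 and -0.08 for CYP9. An F test for any difference among the 3 groups called 0 of 32 members, where 2.04% of all genes were called. At an unadjusted p under 0.05 it held 6 members (18.8%), CYP4AB12, CYP4AB21, CYP4AB8, CYP4BW5, CYP6AQ5 and CYP6CK7, against 12% of all genes. DESeq2's likelihood ratio test called CYP4AB12, CYP4AB21, CYP6AQ5 and CYP6CK7.

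P450 enzymes work ahead of conjugating enzymes and beside esterases. Of 17 glutathione S-transferase rows, whose products attach glutathione to reactive compounds, 16 were tested, and of 13 carboxylesterase rows, whose products cleave esters, 11 were tested. Of these 27 genes 0 were called in each of the 3 comparisons by edgeR, and also 0 in the other settings. The median log2 fold change of dsGFP against uninjected was -0.03 for the transferases, with 7 of 16 above 0, and -0.15 for the esterases, with 3 of 11 above 0. The smallest adjusted p in that comparison belonged to CCE-A9, an esterase at 26.6, 41.2 and 27.3 CPM in dsGFP pools, 30.6, 22.7 and 26.3 CPM in water pools and 24.2, 23.6 and 18.1 CPM in uninjected pools (log2 fold change 0.53, SE 0.19, edgeR adjusted p = 0.161). GstD1, a transferase of the insect delta class, had 156, 159.8 and 164 CPM in dsGFP pools, 184, 171 and 132 CPM in water pools and 207, 188 and 181 CPM in uninjected pools, with no overlap between dsGFP and uninjected (log2 fold change -0.26, SE 0.13, edgeR adjusted p = 0.301). UDP-glycosyltransferase, ABC transporter and cytochrome b5 genes are not analysed here.

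Several members share reads with other genes. The counts used here ignore strand, and a read pair that falls on overlapping genes is then assigned to none of them, while each strand column can still assign it. For CYP4AB17 the strand columns together held 37.7% more counts than the unstranded column, for CYP9AG4 23.5% more, for CYP9AG3 12.9% more and for CYP6AS30 9.66% more, against a median of 0.228% over all genes with at least 90 counts. The unstranded levels of these 4 genes leave those reads out. The first strand column held 49.95 to 50.13% of strand counts per library, so neither column tells which overlapping gene a read came from. Some or all of those reads may belong to the other gene. For the 4 called genes the difference was 0 to 0.00852%. CYP9AG3 and CYP9AG4 are neighbours with no gene between them, as are CYP6CK10 and CYP6CK11. In the first pair CYP9AG4 had 407 to 1017 counts per library and CYP9AG3 5 to 32, and in the other CYP6CK10 had 1142 to 3093 counts and CYP6CK11 6 to 17. CYP6CK10 had 44.0, 37.6 and 47.0 CPM in dsGFP pools, 40.7, 50.6 and 44.2 CPM in water pools and 40.9, 42.6 and 64.2 CPM in uninjected pools, so a single uninjected pool was high and the groups overlapped. STAR sets reads that map to several places apart (310129 to 390359 per library), so members with near-identical copies may be undercounted.

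**Figure D5:**
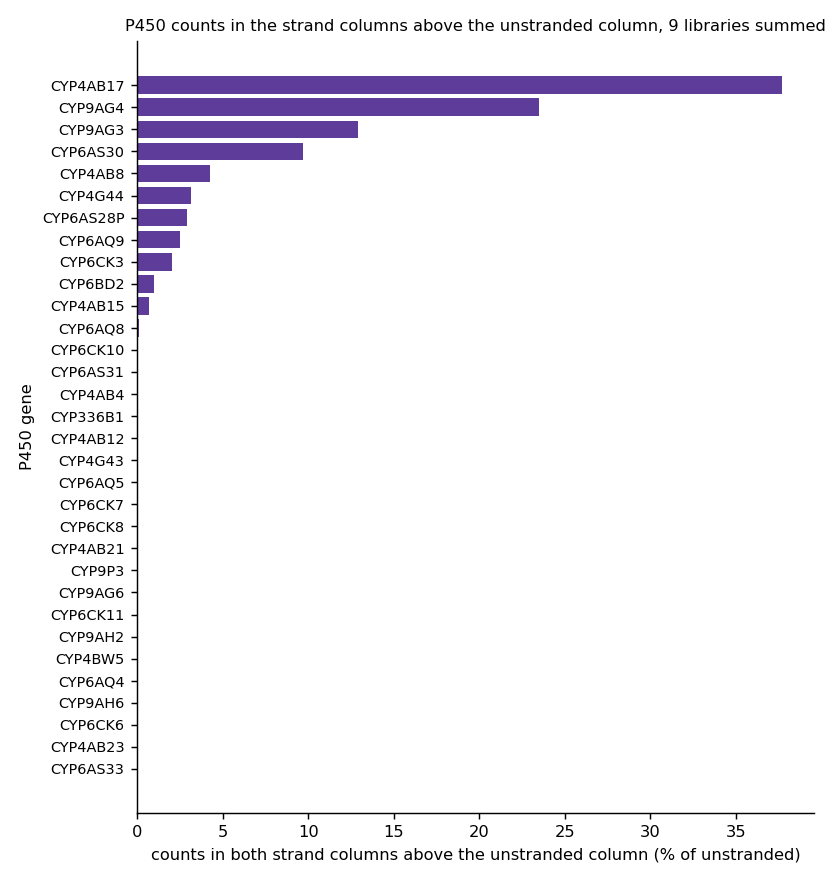
Bars show, for each P450 gene with at least 100 counts in the strand columns and any in the unstranded column, how many more counts the strand columns held over the 9 libraries, in percent of the unstranded counts, with genes down the page. CYP4AB17 (37.7%), CYP9AG4 (23.5%), CYP9AG3 (12.9%) and CYP6AS30 (9.66%) stand out, and most other genes are near 0.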

How the data were processed

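Libraries were made from poly(A)-enriched RNA and read in pairs (150 bp), and no strand-marking step appears in the labels' protocols. The authors deposited raw counts per gene, 1 table per library, as STAR writes them (version 2.6.1b per the submitters' processing notes). Their genome build was not given in the sources used here. Of 15430 rows, 12 that name no gene (0.0518 to 0.0608% of counts) were left out. All 41 members were matched by symbol to a RefSeq gene table of assembly Nvit_psr_1.1, used for gene types and gene order. Genes were kept by filterByExpr (minimum count 10, minimum total 15), which left 11665, and the TMM method set library scales before quasi-likelihood tests in edgeR 4.0.16 (glmQLFit, robust, and glmQLFTest; R 4.3.3), with 9 libraries in a single fit of 3 groups. Genes with an adjusted p under 0.05 over all genes were called. CPM values use TMM-scaled library sizes, except rRNA and the limits at 0 counts, which use gene totals. Replicate pairs differed beyond sampling noise (chi-square per degree of freedom 91.3 to 318). Gene totals per library are given with the results.

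The members and lists were chosen with earlier results of these data known. Genes were named by rule: members called in any comparison, the 3 of highest mean CPM and the 3 of smallest F-test p per family, and the 3 of widest range. Further names were chosen after their values were seen. Alternatives were DESeq2 1.42.0, limma-voom (limma 3.58.1), other scaling factors, other filters, the strand columns, a replicate block, fits of only the groups compared and leaving out each library. The omission of dsGFP 1, water 3 and uninjected 3 together was chosen after seeing the data, as were the alternatives for the F test and for the other detoxification genes.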

Additional observations from a re-analysis of the deposited data

Results flagged for a closer look

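CYP6CK13P, listed as a transcribed pseudogene, had 0 counts in the unstranded column of every library but 328 counts in the strand columns over the 9 libraries. By library these were 25, 27 and 29 with dsGFP, 33, 44 and 32 with water and 43, 37 and 58 without injection. It was noted because the strand columns, used here only as alternatives, hold a signal above the limit that a count of 0 allows. Both strand columns held counts in each library (12 to 30 each), so the unstranded 0 cannot be read as absence of reads at this locus. Over all genes the first strand column held 49.95 to 50.13% of strand counts per library. The columns therefore cannot tell whether these reads came from CYP6CK13P or from an overlapping gene. Groups of 3 libraries are too small for a search for single outlying pools.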

How the results depend on the processing

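The P450 counts for dsGFP against water and for water against uninjected stayed at 0 in all settings. For dsGFP against uninjected the count of 4 became 6 with DESeq2 and 3 with DESeq2 size factors in edgeR. It stayed at 4 with no low-count filter and with a filter of at least 50 counts in 3 libraries. The count became 2 with the first strand column, the second strand column, upper-quartile factors or the replicate block. It was 1 with limma-voom and 0 in the fit of only the 2 groups. Leaving out 1 library gave 0 to 2, and without dsGFP 1, water 3 and uninjected 3 together it was 0. Over all genes that comparison gave 531 calls, 932 with DESeq2, 255 with only the 2 groups, 134 to 681 when 1 library was left out and 0 without those 3. For dsGFP against water DESeq2 called 6 of all genes. For water against uninjected the 1 call over all genes became 45 with DESeq2, 0 with the second strand column, 0 without those 3 and 1 to 7 when 1 library was left out. The F test's 0 members became 4 with DESeq2 and 0 to 1 when 1 library was left out (1 without uninjected 1). Without CYP6AQ5 the log2 ratio of CYP6 sums was 0.0742 for dsGFP against water, 0.165 for dsGFP against uninjected and 0.0905 for water against uninjected. The causes of these changes were not tested. Smaller fits also hold fewer libraries, and the part of this in the counts was not tested either. Each strand column also holds only part of the reads, with 49.95 to 50.13% of strand counts per library in the first. Same-numbered pools had correlations of -0.33 to 0.43 in their deviations from the group means, and differently numbered pools -0.645 to 0.587. Deviations from a mean of 3 pools depend on each other, so these values cannot decide whether replicate numbers pair the pools. Under the replicate block 539 of all genes were called. Unscaled gene totals moved the median log2 ratio of all genes to -0.11 for dsGFP against uninjected. Pools of 3 per group and low counts limit the precision for genes such as CYP9AG3.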
